A study of Mus musculus with 20 samples.

Results

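RAW264.7 cells, a mouse line of monocyte and macrophage type that forms osteoclasts in culture, received the cytokine RANKL (50 ng per ml) together with I-BET (500 nM), an inhibitor of the BET bromodomain proteins. Gene expression was compared between 24 hours and 14 hours of this combined treatment, to follow how the part of the RANKL response that remains under the inhibitor changes late in the course. The comparison holds 4 of the 20 libraries of the series, chosen by their labels: 2 at 24 hours and 2 at 14 hours, read over all genes. Beside it stand I-BET alone (500 nM) and RANKL alone (50 ng per ml) at the same hours, the combined treatment and each agent alone at 4 hours, and cells at hour 0 that had received neither agent, with 2 libraries in each of the 10 groups. All groups are the same established line, with no allele or transgene named in the labels, so no group differs from another in genotype. The cell line label reads RAW264.7, while the source label reads bone marrow. No untreated or vehicle-treated cells are labelled for 14 or 24 hours.

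RANKL binds its receptor RANK on monocytes and macrophages and signals through TRAF adaptors to NF-kB and to the AP-1 factors of the Fos and Jun families. These induce the transcription factor Nfatc1, which in turn drives the osteoclast genes of fusion, acid secretion and matrix digestion. BET proteins bind acetylated histones at promoters and enhancers and recruit the elongation machinery, and their inhibition is known to lower transcription of many cytokine-induced genes.

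Total counts were 48183098 and 54024985 in the 24-hour libraries and 27032294 and 42999279 in the 14-hour libraries, within 19051780 to 62313792 over the series. The defining macrophage genes were present: Lyz2, the lysozyme of macrophages, had 2339 and 2891 CPM (counts scaled to a common library total with TMM factors) at 24 hours and 2961 and 4056 at 14 hours, and Csf1r, the receptor of M-CSF, had 1220 and 1328 CPM at 24 hours and 1643 and 1904 CPM at 14 hours. Of 21 markers of non-myeloid cell types 20 were under 1 CPM in all 4 libraries and 13 were at 0; the summed level was 1.34 to 1.58 CPM at 24 hours and 1.20 to 1.61 CPM at 14 hours. Of 16 markers of other myeloid cells 14 were under 1 CPM and 5 were at 0, with sums of 4.21 to 4.53 CPM at 24 hours and 4.59 to 5.05 CPM at 14 hours. Genes that track RNA quality, ribosomal and mitochondrial RNA among them, took 2.73% and 2.68% of the counts at 24 hours and 2.65% and 3.54% at 14 hours; the untreated library 2 stood apart with 6.89%. Libraries of the same number deviated from their group means together, so each main count is also given from a fit with the library number as a block ("with the block"). Whether both libraries of a group stem from different cultures is not labelled. The p-values therefore reflect only the spread among these libraries, which may be technical. In these bulk samples fewer cells of a type and less RNA per cell cannot be told apart.

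Between 14 and 24 hours of RANKL plus I-BET, 51 genes fell and 17 rose. The genes that fell include the AP-1 subunit Fos, the scavenger receptor Msr1, the phagosomal metal transporter Slc11a1, the urokinase receptor Plaur and the chemokines Cxcl10, Cxcl14 and Cxcl16; those that rose include the surface protein Cd83, the peroxisomal transporter Abcd2 and the prostaglandin synthase Hpgds. By edgeR's quasi-likelihood test with Benjamini-Hochberg adjustment over 16042 tested genes, 68 genes were called (0.424%). Of these 51 were lower at 24 hours (0.318% of the genes tested) and 17 were higher (0.106%); "called" here and below means an adjusted p under 0.05, and only called genes are said to rise or fall. With the block 1177 genes were called (7.34%), 634 lower (3.95%) and 543 higher (3.38%), and they include all 68. In each of the 68 the 2 libraries of 24 hours lay apart from the 2 of 14 hours, as they did in 38.4% of all tested genes. The median change was -1.05 on the log2 scale over the 51 genes and 0.91 over the 17, against -0.0029 over all tested genes. The count moved with single libraries. It was 49 without 24-hour library 1, 1 (Slc11a1) without 24-hour library 2, 1 (Slc11a1) without 14-hour library 1 and 14 without 14-hour library 2. It was 36 without the untreated libraries. A fit of these 4 libraries alone called 0 genes by edgeR, with 1337 at an unadjusted p under 0.05; DESeq2 on all libraries called 316 and limma on RPKM 43 or 45. With the block and 1 library left out, 60 to 66 of the 68 were called again.

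**Figure D1:**
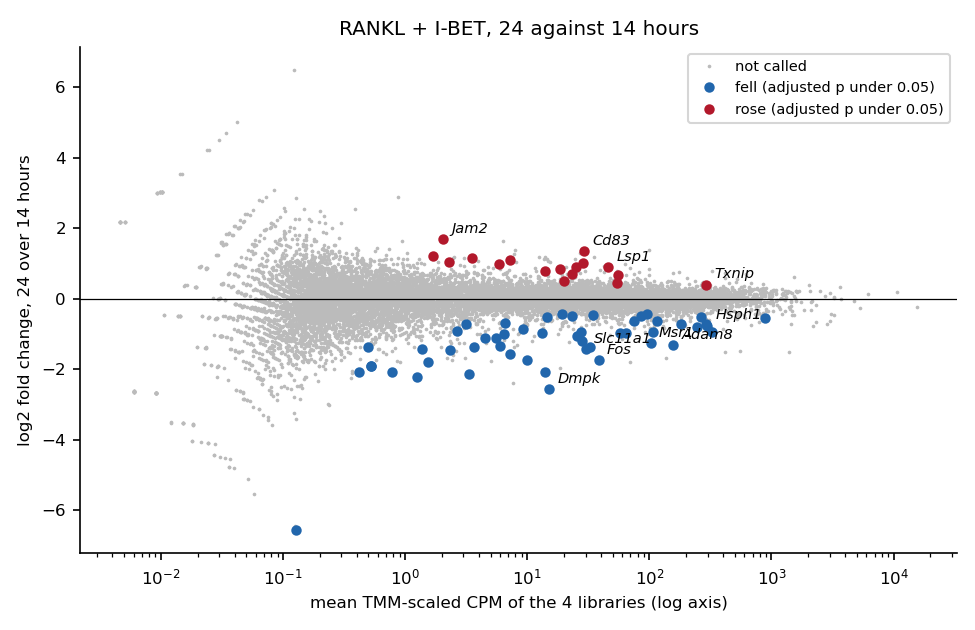
Log2 fold change of 24 over 14 hours of RANKL plus I-BET (y axis) against the mean TMM-scaled CPM of the 4 libraries (log x axis), 1 point per tested gene, with the 17 genes that rose in red and the 51 that fell in blue (adjusted p under 0.05). The lowest blue point is Odf3l1, a gene named for its place in this plot, which had 0 counts in both 24-hour libraries. Its fitted change depends on the prior count and is no measured fold.

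Chemokines were among the secreted ligands that fell. Cxcl10, an interferon-inducible ligand of CXCR3 (ENSMUSG00000034855, chromosome 5, 92346638 to 92348889 on mm10), had 4.11 and 2.62 CPM at 24 hours, against 8.6 and 8.56 CPM at 14 hours. Its log2 change was -1.35 (SE 0.25, edgeR adjusted p = 0.0423). Cxcl14, a chemokine of epithelia and monocytes, had 5.45 and 3.62 CPM at 24 hours, against 17.3 and 13.2 CPM at 14 hours. This was a log2 change of -1.75 (SE 0.29, edgeR adjusted p = 0.0218). Cxcl16, a membrane-bound ligand of CXCR6, had 44 and 42.7 CPM at 24 hours, against 78.8 and 90.8 CPM at 14 hours. Cxcl16 changed by -0.97 on the log2 scale (SE 0.15, edgeR adjusted p = 0.0133). In all 3 both 24-hour libraries were below both 14-hour libraries. The hours lay apart in each of the 68 called genes and in 38.4% of all tested genes. Of the 12 tested members of the chemokine list all had a value below 0, with a median of -0.71; 3 were called lower and 0 higher, and with the block 4 and 0, the fourth being Ccl5 (-0.96; adjusted p = 0.223, with the block 0.0445). Cxcl11, another ligand of CXCR3, is not on the list and was called lower too, with 0.163 and 0.148 CPM at 24 hours, against 0.805 and 0.553 CPM at 14 hours (-2.09, edgeR adjusted p = 0.0423; 0.0981 to 0.437 with 1 library left out). The growth factors Igf1 (-2.24, edgeR adjusted p = 0.00772; 0.0486 to 0.0804 with 1 library left out) and Vegfc (-1.79, edgeR adjusted p = 0.0366; 0.0604 to 0.446) were also called lower; these 3 genes were named after their values were seen. Of all tested genes 0.318% were called lower and 0.106% higher in the combined treatment, and with the block 3.95% and 3.38%. I-BET alone had a median of 0.13 in the chemokine list between the same hours and RANKL alone -0.52. With I-BET alone 0 members were called, and with the block 3 were lower and 0 higher. With RANKL alone 3 members were called lower and 0 higher, where 1.78% and 1.13% of all genes were. Cxcl10, Cxcl14 and Cxcl16 changed by -1.63, -2.37 and -1.24 with RANKL alone (edgeR adjusted p = 0.00241, 0.000605 and 0.00051). With I-BET alone Cxcl10, Cxcl14 and Cxcl16 changed by -0.47, -1.15 and -0.66. Their edgeR adjusted p were 0.839, 0.221 and 0.168 there, and with the block 0.387, 2.79e-05 and 0.00435. Without 24-hour library 2 the adjusted p was 0.499 for Cxcl10, 0.388 for Cxcl14 and 0.237 for Cxcl16. In the same gene order it was, without 14-hour library 1, 0.266, 0.242 and 0.0804. Without 14-hour library 2 it was 0.161, 0.0604 and 0.114, and Cxcl16 also missed without 24-hour library 1 (0.0658).

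Among the other called genes 5 that code for cell surface receptors are described next; they were taken from the called genes and not from a list, so no count of receptors stands behind them. Plaur, the receptor of urokinase (ENSMUSG00000046223, chromosome 7, 24462484 to 24475968), had 20.9 and 15.8 CPM at 24 hours, against 44.7 and 49.9 CPM at 14 hours. The log2 fold change of Plaur was -1.37 (SE 0.17, edgeR adjusted p = 0.00519). Msr1, the class A scavenger receptor of macrophages, had 67.1 and 54 CPM at 24 hours, against 146 and 144 CPM at 14 hours. In Msr1 the log2 change came to -1.26 (SE 0.17, edgeR adjusted p = 0.00635). Clec4e, the C-type lectin Mincle, had 18.4 and 15.2 CPM at 24 hours, against 38 and 39.5 CPM at 14 hours. For Clec4e the log2 change was -1.20 (SE 0.16, edgeR adjusted p = 0.00635). The libraries of an hour lay close together in these 3 genes. The hours did not overlap, as in each of the 68 called genes and in 38.4% of all tested genes. Gpr84, a receptor of medium-chain fatty acids, had 4.55 and 2.71 CPM at 24 hours, against 9.01 and 12.5 CPM at 14 hours. Its log2 change was -1.57 (SE 0.28, edgeR adjusted p = 0.0366). With RANKL alone Plaur, Msr1, Clec4e and Gpr84 changed by -0.98, -0.97, -1.89 and -1.88 (edgeR adjusted p = 0.00534, 0.00523, 9.94e-05 and 0.00201). With I-BET alone they changed by -0.092, -0.70, -0.089 and -0.0067, and none was called. Itga5, the alpha subunit of the fibronectin receptor, had 82.1 and 62.7 CPM at 24 hours of the combined treatment, against 149 and 132 CPM at 14 hours. This was a log2 change of -0.96 (SE 0.14, edgeR adjusted p = 0.0098; it was named after its values were seen). Without 24-hour library 2 these 5 genes had an adjusted p of 0.133 (Plaur) to 0.442 (Gpr84). Without 14-hour library 1 the values were 0.0622 for Plaur, 0.0804 for Msr1 and for Clec4e, 0.135 for Gpr84 and 0.135 for Itga5. Without 14-hour library 2 Clec4e (0.0506) and Gpr84 (0.207) missed as well. With the block and 1 library left out, Plaur, Msr1 and Clec4e were called each time and Gpr84 only 1 time of 4 (highest adjusted p 0.138).

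The macrophage identity list, 25 tested genes, had a median of -0.26 with 20 members below 0; 1 was called lower (Msr1) and 0 higher. With the block 5 were lower and 2 higher, where 3.95% and 3.38% of all genes were. Cd36, a scavenger receptor of oxidized lipid (-1.68; adjusted p = 0.0537, with the block 0.00495), Msr1, the integrin subunit Itgam (-0.51, 0.37 and 0.0334), Csf1r (-0.48, 0.254 and 0.00206) and Lyz2 (-0.42, 0.721 and 0.0188) were lower, while the lineage factor Irf8 (0.29, 0.944 and 0.0391), and the Fc receptor Fcgr3 (0.82, 0.196 and 0.0381) were higher. With the block members were thus called both ways. RANKL alone had a median of -0.79 in this list between the same hours, with 8 called lower, where 1.78% of all genes were. I-BET alone had a median of -0.016, with 0 called.

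Of the transcription factors that RANKL uses, Fos was called. Fos, the AP-1 subunit without which mice form no osteoclasts (ENSMUSG00000021250, chromosome 12, 85473890 to 85477273), had 22 and 13.2 CPM at 24 hours, against 71.2 and 47.4 CPM at 14 hours. Fos changed by -1.75 on the log2 scale (SE 0.29, edgeR adjusted p = 0.0202). Library 1 was above library 2 at both hours. The hours did not overlap, as in each of the 68 called genes and in 38.4% of all tested genes. Its relative Fosl1 (Fra-1) had 1.65 and 1.09 CPM at 24 hours, against 4.76 and 2.98 CPM at 14 hours. The log2 fold change of Fosl1 was -1.48 (SE 0.31, edgeR adjusted p = 0.0639, with the block 0.000812). Of 24 tested genes of osteoclast transcription and signalling 19 were below 0 (median -0.24), with 1 called lower and 0 higher. With the block 5 were lower (Fos, Fosl1, Tnfrsf11a, Jdp2 and Csf1r) and 1 higher (Irf8). RANKL alone had a median of -0.23 in this list between the same hours, with 3 called lower and 0 higher. With the block 10 were lower and 2 higher there, where 10.4% and 6.44% of all genes were. I-BET alone had a median of 0.11 with 0 called, and with the block 2 were higher and 0 lower. Tnfrsf11a, the gene of RANK, had 82.8 and 60.6 CPM at 24 hours of the combined treatment, against 161 and 98 CPM at 14 hours. In Tnfrsf11a the log2 change came to -0.85 (SE 0.39, edgeR adjusted p = 0.57, with the block 4.84e-05). Both 24-hour libraries were below both 14-hour libraries, and library 1 was above library 2 at both hours. Nfatc1 had 139 and 106 CPM at 24 hours, against 170.3 and 109 CPM at 14 hours. For Nfatc1 the log2 change was -0.19 (SE 0.37, edgeR adjusted p = 0.984, with the block 0.49). Myc, a transcription factor of cell growth known to depend on BET proteins, had 0.508 and 0.241 CPM at 24 hours, against 1.94 and 0.746 CPM at 14 hours. Its log2 change was -1.77 (SE 0.53, edgeR adjusted p = 0.221, with the block 0.0596). Neither Nfatc1 nor Myc passed. The Fos call was lost without 24-hour library 2 (0.372) and without 14-hour library 1 (0.255).

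Among the genes that carry out osteoclast work, Adam8, a membrane metalloprotease of osteoclasts and phagocytes, had 103 and 76.9 CPM at 24 hours, against 237 and 212 CPM at 14 hours. This was a log2 change of -1.32 (SE 0.21, edgeR adjusted p = 0.0179; 0.353 without 24-hour library 2, 0.188 and 0.0653 without 14-hour library 1 and 2). It was the 1 called gene of 22 tested osteoclast effectors, whose median was -0.18 with 17 below 0; with the block Itgav, the alpha subunit of the vitronectin receptor, was lower as well (-0.95; adjusted p = 0.401, with the block 1.99e-05). The classical markers were low and none was called: Acp5, tartrate-resistant acid phosphatase, had 2.11 and 1.11 CPM at 24 hours and 4.65 and 2.65 CPM at 14 hours. Mmp9, a matrix metalloproteinase, had 0.102 and 0.0928 CPM at 24 hours and 0.513 and 0.193 CPM at 14 hours. Ctsk, the collagen-digesting cathepsin K, had 7.44 and 6.66 CPM at 24 hours and 5.27 and 4.67 CPM at 14 hours. Their log2 changes were -1.16, -1.73 and 0.51, with edgeR adjusted p = 0.517, 0.571 and 0.333 (with the block 0.0587, 0.264 and 0.086). The fusion genes Dcstamp (-0.38) and Ocstamp (-0.24) and the proton pump subunit Atp6v0d2 (-0.13) did not pass either, at adjusted p = 0.886, 0.964 and 1. RANKL alone had 2 of these 22 genes called higher and 0 lower between the same hours, where 1.13% and 1.78% of all genes were. In the combined treatment 0.106% and 0.318% of all genes were called, and with the block 3.38% and 3.95%.

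**Figure D2:**
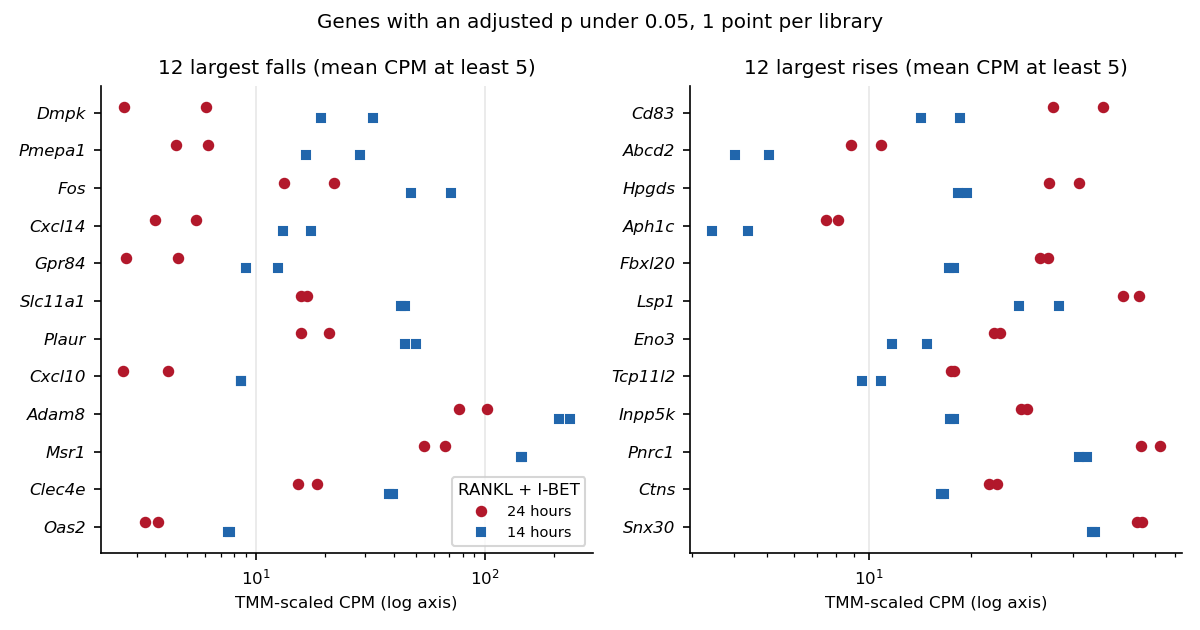
TMM-scaled CPM (log x axis) of the 12 called genes with the largest falls and the 12 with the largest rises, among called genes averaging 5 CPM or more; each point is 1 library, red circles at 24 hours and blue squares at 14 hours. Genes were shown only if the libraries of the 2 hours did not overlap. By this choice the 2 red points lie on 1 side of the 2 blue points in every gene. Slc11a1 has 16.7 and 15.7 CPM at 24 hours and 45 and 42.9 CPM at 14 hours.

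One fall held in every leave-one-out fit, that of Slc11a1, the metal ion transporter of the phagosome membrane that limits growth of intracellular bacteria in mice (ENSMUSG00000026177, chromosome 1, 74375195 to 74386062). It had 16.7 and 15.7 CPM at 24 hours, against 45 and 42.9 CPM at 14 hours. Slc11a1 changed by -1.44 on the log2 scale (SE 0.11, edgeR adjusted p = 9.49e-05). It was called in each of the 4 fits with 1 library left out (0.00136 to 0.00873). No other gene of the 68 did so. In I-BET alone it was lower too at 24 hours, with 21.3 and 18.1 CPM, against 31.9 and 33 CPM at 14 hours. The log2 change there was -0.72 (SE 0.11, edgeR adjusted p = 0.0463). RANKL alone had 70.7 and 80.6 CPM of Slc11a1 at 24 hours, against 138 and 159 CPM at 14 hours. With RANKL alone the log2 change was -0.98 (SE 0.11, edgeR adjusted p = 0.000432). Dmpk, the kinase of the myotonic dystrophy locus (ENSMUSG00000030409, chromosome 7, 19083849 to 19093821), had 6.05 and 2.64 CPM at 24 hours, against 32.4 and 19.3 CPM at 14 hours. The log2 fold change of Dmpk was -2.57 (SE 0.42, edgeR adjusted p = 0.0185; 0.325 without 24-hour library 2, 0.198 without 14-hour library 1). Dmpk changed by -2.07 with I-BET alone (edgeR adjusted p = 0.12, with the block 0.0136) and by 0.56 with RANKL alone (0.562 and 0.183). Pmepa1, a membrane protein that is induced by TGF-beta and dampens Smad signalling, had 6.18 and 4.46 CPM at 24 hours, against 28.4 and 16.6 CPM at 14 hours. It changed by -1.19 with I-BET alone (edgeR adjusted p = 0.504, with the block 0.00226) and by -1.86 with RANKL alone (0.018 and 2.67e-06). In the combined treatment the log2 change of Pmepa1 came to -2.08 (SE 0.40, edgeR adjusted p = 0.0467). It lost the call in each of the 4 fits with 1 library left out (adjusted p 0.0653 to 0.535) and kept it in all 4 with the block (0.000172 to 0.00176).

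The genes that rose were fewer and their changes smaller. Cd83, a surface protein of activated antigen-presenting cells (ENSMUSG00000015396, chromosome 13, 43784775 to 43803132), had 48.9 and 34.9 CPM at 24 hours, against 14.2 and 18.5 CPM at 14 hours. For Cd83 the log2 change was 1.35 (SE 0.20, edgeR adjusted p = 0.0133). Abcd2, a peroxisomal transporter of very long-chain fatty acids, had 8.84 and 10.8 CPM at 24 hours, against 4.03 and 5.05 CPM at 14 hours. Its log2 change was 1.11 (SE 0.17, edgeR adjusted p = 0.0133). Hpgds, which makes prostaglandin D2, had 34 and 41.7 CPM at 24 hours, against 18.3 and 19.5 CPM at 14 hours. This was a log2 change of 0.998 (SE 0.19, edgeR adjusted p = 0.0467). In all 3 both 24-hour libraries were above both 14-hour libraries, and the hours lay apart in each of the 68 called genes (in 38.4% of all tested genes). Fbxl20, an F-box subunit of ubiquitin ligases, had 33.8 and 31.9 CPM at 24 hours, against 17.8 and 17.2 CPM at 14 hours. Fbxl20 changed by 0.91 on the log2 scale (SE 0.12, edgeR adjusted p = 0.00519). Lsp1, an actin-binding protein of leukocytes (ENSMUSG00000018819, chromosome 7, 142460809 to 142494867), had 56.3 and 62.8 CPM at 24 hours, against 27.6 and 36.4 CPM at 14 hours. The log2 fold change of Lsp1 was 0.90 (SE 0.17, edgeR adjusted p = 0.0467). Txnip, the thioredoxin-binding arrestin that restrains glucose uptake, had 329 and 338 CPM at 24 hours, against 250.4 and 255 CPM at 14 hours. In Txnip the log2 change came to 0.40 (SE 0.073, edgeR adjusted p = 0.038). It was the 1 called gene among 16 genes of the BET inhibitor response. Further rises of 0.45 to 0.99 were found in Aph1c, a gamma-secretase subunit, Eno3, the muscle enolase, Tcp11l2, the phosphatase Inpp5k, Pnrc1, a coactivator of nuclear receptors, Ctns, the lysosomal cystine exporter, and the sorting nexin Snx30 (edgeR adjusted p = 0.00635 to 0.0484). Without 24-hour library 2 and without 14-hour library 1 none of these 13 genes was called (adjusted p 0.0608 to 0.537 and 0.0804 to 0.486), while without 14-hour library 2 only Tcp11l2 was (0.0385). Without 24-hour library 1, 4 were: Abcd2, Fbxl20, Tcp11l2 and Inpp5k.

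After Fos was seen to fall, the promoters of the called genes were read for the AP-1 motif. A link between Fos and the matches was not tested. RefSeq windows of 300 bases (250 before and 50 after the start; GRCm38.p6) were found for 34 of the 51 genes that fell, and TGANTCA, searched on both strands, was present in 5 of them (14.7%): Plaur, Cxcl10, Gja1, Igf1 and Sel1l. It was present in 0 of 12 windows of genes that rose and in 495 of 9650 windows of all tested genes (5.13%). With the block it was found in 35 of 466 windows of genes that fell (7.51%) and in 10 of 414 of genes that rose (2.42%). A match is a description of the letters in this window. The windows of 3 of these genes are shown, with the match -69 bases from the start in Plaur, -74 in Cxcl10 and -19 in Gja1. In Igf1 and Sel1l, whose windows are not shown, it lies at -37 and -205. The match is in capitals and the rest in lower case.
Plaur promoter, chr7:24462233-24462532, + strand: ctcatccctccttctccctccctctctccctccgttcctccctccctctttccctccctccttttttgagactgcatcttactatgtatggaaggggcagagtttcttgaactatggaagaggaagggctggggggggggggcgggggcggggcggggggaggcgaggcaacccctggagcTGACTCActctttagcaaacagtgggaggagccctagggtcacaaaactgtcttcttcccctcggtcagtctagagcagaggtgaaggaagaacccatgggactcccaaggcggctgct
Cxcl10 promoter, chr5:92348840-92349139, - strand: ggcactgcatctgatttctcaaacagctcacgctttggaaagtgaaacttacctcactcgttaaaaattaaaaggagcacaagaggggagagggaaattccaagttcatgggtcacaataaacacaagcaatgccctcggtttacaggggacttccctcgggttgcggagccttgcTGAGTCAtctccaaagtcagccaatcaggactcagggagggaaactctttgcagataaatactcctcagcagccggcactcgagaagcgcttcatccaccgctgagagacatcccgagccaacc
Gja1 promoter, chr10:56377050-56377349, + strand: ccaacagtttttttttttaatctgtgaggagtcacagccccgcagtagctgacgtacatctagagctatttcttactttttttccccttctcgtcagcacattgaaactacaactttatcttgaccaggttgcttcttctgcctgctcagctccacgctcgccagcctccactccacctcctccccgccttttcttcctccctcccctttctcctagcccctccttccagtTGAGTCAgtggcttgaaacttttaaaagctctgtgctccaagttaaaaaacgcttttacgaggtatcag

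Gja1, the gap junction protein connexin 43, is the third of these promoters and had 9.35 and 8.45 CPM at 24 hours, against 18.7 and 16.3 CPM at 14 hours; it fell by 0.97 (SE 0.14, edgeR adjusted p = 0.0098; named after its values were seen, 0.229 without 24-hour library 2 and 0.135 without 14-hour library 1). Other motifs stood at 11.8% (interferon-stimulated response element, 4 windows of genes that fell, against 3.16% of all; with the block 14 of 466, 3.0%), 23.5% (the ETS core GAGGAA, 8 windows, against 26.9%), 5.88% (the E-box CACGTG, 2 windows, against 10.2%), 8.82% (the cell cycle homology region TTTGAA, 3 windows, against 12.2%) and 0% (the NF-kB motif and the E2F motif TTTCCCGC, against 0.415% and 2.06%). GAGGAA can overlap other motifs, and no match says only that these letters are not in the window.

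Most protein folding genes had values below 0, and 2 fell. Hsph1, a chaperone of the Hsp110 family, had 220.1 and 217 CPM at 24 hours, against 379 and 365 CPM at 14 hours. For Hsph1 the log2 change was -0.77 (SE 0.10, edgeR adjusted p = 0.00519). Sel1l, an adaptor of degradation at the endoplasmic reticulum, had 233 and 202 CPM at 24 hours, against 309.5 and 319 CPM at 14 hours. Its log2 change was -0.53 (SE 0.10, edgeR adjusted p = 0.0467). Of the 26 tested members 23 were below 0 (median -0.48), 2 were called lower and 0 higher, and with the block 15 were lower and 0 higher. Those with the block include Hspa5 (BiP; 2078 and 2208 CPM at 24 hours, 2967 and 4120 CPM at 14 hours; -0.73, adjusted p = 0.581, with the block 0.0337), Hsp90b1 (-0.77, 0.0947 and 0.00128), Pdia4 (-0.85, 0.0996 and 0.00498) and Creld2 (-1.01, 0.328 and 0.00677). I-BET alone had a median of -0.29 between the same hours (0 called, 2 lower with the block, where 1.1% of all genes were lower and 1.39% higher) and RANKL alone -0.12. With RANKL alone 3 members were called lower and 0 higher, where 1.78% and 1.13% of all genes were. With the block 6 were lower and 1 higher there (10.4% and 6.44% of all genes). Hsph1 and Sel1l changed by -0.57 and -0.44 with RANKL alone (edgeR adjusted p = 0.00535 and 0.0373). In the combined treatment the summed level of the list was 14920 to 15530 CPM at 24 hours and 19690 to 23330 CPM at 14 hours. Without 24-hour library 2 the adjusted p of Hsph1 was 0.133 and that of Sel1l 0.535. Without 14-hour library 1 they were 0.0804 and 0.305, and Sel1l also missed without 24-hour library 1 (0.0626) and 14-hour library 2 (0.207).

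Interferon, NF-kB and stress genes gave low values with few calls. Of 34 tested genes of the type I interferon response 31 were below 0 (median -0.45); Oas2, an oligoadenylate synthetase that senses viral RNA, fell by 1.12 (3.25 and 3.73 CPM at 24 hours, against 7.51 and 7.67 CPM at 14 hours; SE 0.19, edgeR adjusted p = 0.0226, 0.134 to 0.237 with 1 library left out), and with the block 6 were lower and 0 higher. RANKL alone had a median of -0.90 there with 12 called lower (1.78% of all genes were), and I-BET alone -0.37 with Oas2 called lower. Of 24 NF-kB feedback and target genes 22 were below 0 (median -0.33), yet the 1 called member, Cd83, was higher; with the block Birc3, Nfkbie and Tnip1, inhibitors or feedback factors of the pathway, were lower (-0.61, -0.47 and -0.34, 0.00302, 0.0285 and 0.0184 with the block). Genes of NRF2 and glutathione, 21 tested, had a median of -0.25 and 0 calls; with the block 7 were lower and 0 higher, among them the sulfiredoxin gene Srxn1 (61.3 and 53.1 CPM at 24 hours, 100.0 and 85.2 CPM at 14 hours; -0.69, adjusted p = 0.0522, with the block 9.16e-06). Of 16 inflammatory cytokines and mediators 0 were called, and with the block the prostaglandin synthase Ptgs2 was lower (-1.20; 0.114 and 0.0418). The clustered histone genes (16 tested, median -0.29) had 0 called and 1 higher with the block, and mitogen and cytokine feedback genes (17, median -0.17) had 0 called and 1 lower. By edgeR 1373 of all 16042 genes had an unadjusted p under 0.05. Of all tested genes 0.318% were called lower and 0.106% higher in the combined treatment, and with the block 3.95% and 3.38%. In the NRF2 and glutathione list RANKL alone had a median of -0.25, with 3 called lower and 0 higher. With the block 10 were lower and 0 higher there, where 10.4% and 6.44% of all genes were. I-BET alone had a median of -0.0017 in that list with 0 called, and with the block 1 each way.

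In the lists of mitosis, DNA replication, cholesterol, LXR targets, p53 targets, ribosomal proteins, oxidative phosphorylation, lysosome and MYC targets, edgeR called 0 genes without the block. With the block 3.95% of all tested genes were lower and 3.38% higher in the combined treatment. These shares were 10.4% and 6.44% with RANKL alone, and 1.1% and 1.39% with I-BET alone. Of 35 mitosis genes 32 were below 0 (median -0.19), and with the block 13 were lower and 0 higher, Anln and Mki67 among them (-0.47 and -0.44, adjusted p = 0.0622 and 0.788, with the block 0.000157 and 0.00167). The mitosis median was -0.15 with I-BET alone and -0.18 with RANKL alone. With the block 2 and 10 mitosis genes were lower there and 0 higher in either course. The 40 DNA replication genes had a median of 0.0021, 20 on each side of 0, and 1 higher with the block. Of 24 genes of cholesterol synthesis and uptake 21 were above 0 (median 0.30), and with the block 9 were higher and 0 lower, such as Insig1 (0.66, 0.372 and 0.0151) and Lss (0.55, 0.278 and 0.00097). Among 20 genes of LXR targets and lipid handling (median 0.28) the block had 7 higher and 2 lower: the desaturase Scd1 had 123 and 165 CPM at 24 hours and 40.0 and 70.2 CPM at 14 hours (1.38, 0.0783 and 0.00457), and the cholesterol exporter Abca1 had 13.6 and 9.32 CPM at 24 hours and 4.21 and 4.62 CPM at 14 hours (1.37, 0.0875 and 0.00168). I-BET alone gave similar medians in both lists, 0.35 and 0.30. Of 26 p53 targets and genes of cell cycle arrest (median 0.10) the block had 9 higher and 1 lower, led by Ccng2 (1.05, 0.229 and 0.00399) and Btg2 (0.83, 0.57 and 8.11e-05). I-BET alone had a median of 0.024 in the p53 list, with 2 higher and 2 lower with the block. RANKL alone had a median of 0.28 there, with 11 higher and 4 lower with the block. All 38 ribosomal protein genes and all 34 genes of oxidative phosphorylation were above 0, by medians of 0.20 and 0.17, with 7 and 9 higher with the block. In the same order the medians were 0.18 and 0.062 with I-BET alone, with 2 and 1 higher with the block. They were 0.11 and 0.18 with RANKL alone, with 7 and 12 higher with the block. The lysosome list (35 genes, median 0.094) had 5 higher and 0 lower with the block, and the MYC targets of ribosome biogenesis (42 genes, median -0.037) had 1 each way. The lysosome median was 0.15 with I-BET alone, with 8 higher and 0 lower with the block. It was -0.071 with RANKL alone, with 5 higher and 9 lower with the block. The remaining lists were near 0 in the combined treatment: immediate early genes (24 tested, median -0.075; Fos called lower, and with the block 3 lower and 1 higher), BET response genes (16, -0.077; 1 higher), MHC presentation (17, -0.017; 1 higher with the block), ATF4 targets (27, 0.015; 1 each way), BCL2 family and caspases (25, 0.033; 2 each way) and glycolysis and hypoxia (25, 0.11; 1 each way). With I-BET alone the immediate early genes had a median of 0.39 (0 called, 2 higher with the block). The median difference between the course of the combined treatment and that of I-BET alone was -0.62 in these genes (0 called, with the block or without). The combined treatment differed from I-BET alone by medians of 0.42, 0.25 and -0.33 at 4, 14 and 24 hours in them.

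**Figure D3:**
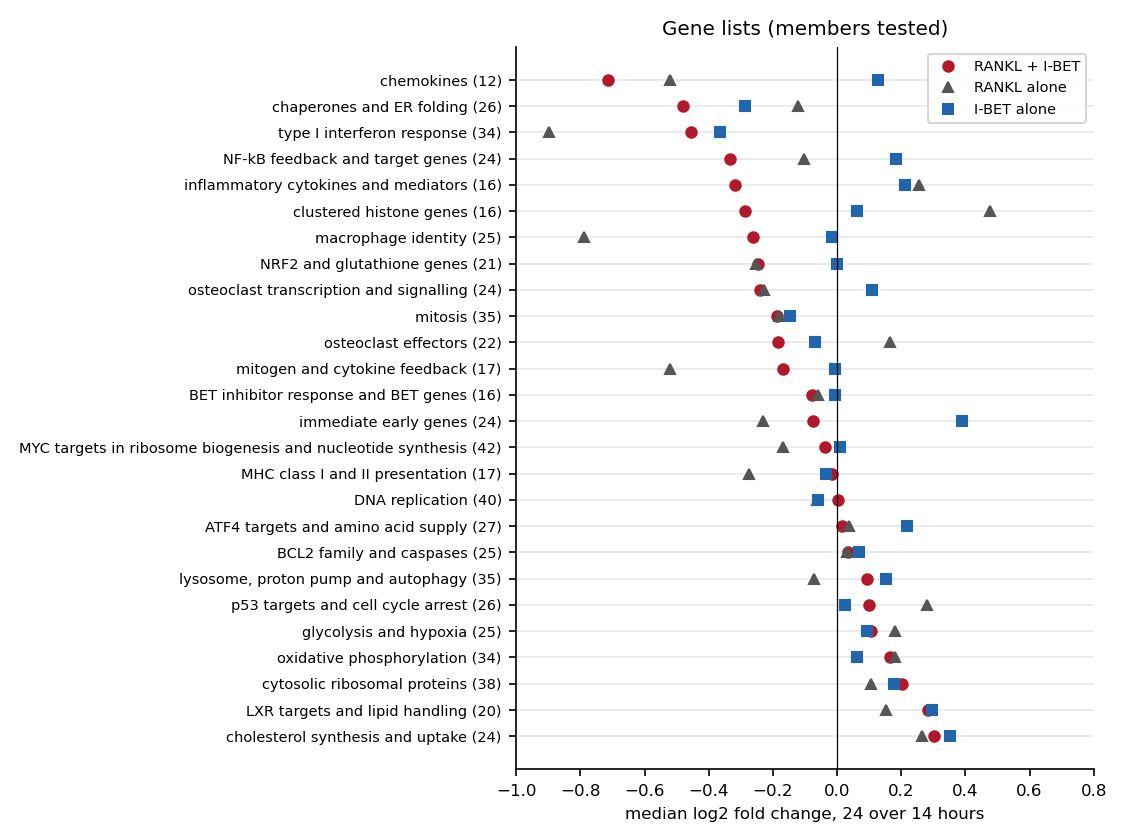
Median log2 fold change of 24 over 14 hours (x axis) of each gene list (y axis, tested members in brackets) in RANKL plus I-BET (red circles), RANKL alone (grey triangles) and I-BET alone (blue squares). Chemokines stand at -0.71 in the combined treatment, at -0.52 in RANKL alone and at 0.13 in I-BET alone, and cholesterol genes are above 0 in all 3 courses.

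The fate of the RANKL response that remained under I-BET was read in genes chosen by other libraries. At 4 hours 77 genes were higher in RANKL plus I-BET than in I-BET alone (0.48% of the tested genes) and 6 were lower (0.0374%), and those libraries are in neither group of the later comparison, though all 20 libraries share 1 estimate of the spread. The median difference of the combined treatment from I-BET alone was 1.17 on the log2 scale at 4 hours, 0.62 at 14 hours and -0.078 at 24 hours. At 14 hours 28 of the 77 were called higher and 1 lower, where 0.549% and 0.355% of all genes were. At 24 hours 4 were called higher and 2 lower, where 0.106% and 0.156% of all genes were. With the block 39 and 2 were called at 14 hours, where 3.57% and 3.01% of all genes were. At 24 hours 11 and 8 were called with the block, where 1.12% and 1.83% of all genes were. Between 24 and 14 hours of the combined treatment the 77 genes had a median change of -0.47 (quartiles -0.77 and -0.18), and 63 were below 0, against 8107 of 16042 genes. Of the 77, 8 were called lower (10.4%) and 1, Cd83, higher; with the block 26 were lower (33.8%) and 3 higher. Over all tested genes 0.318% were called lower and 0.106% higher, and with the block 3.95% and 3.38%. I-BET alone moved by a median of 0.13 in the same genes and RANKL alone by -0.35. The median of the combined course was -0.29 to -0.63 with 1 library left out.

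Members of this set took different courses. Traf1, an adaptor of TNF receptors induced by NF-kB, had 23.1 and 8.98 CPM at 24 hours, against 43.9 and 31 CPM at 14 hours, beside 2.68 and 2.58 CPM and 2.52 and 2.16 CPM with I-BET alone at these hours. Its difference from I-BET alone was 2.83 at 4 hours, 3.99 at 14 hours (SE 0.35, edgeR adjusted p = 0.00035) and 2.61 at 24 hours (SE 0.33, edgeR adjusted p = 0.00905). It was still above I-BET alone at 24 hours. Nfkb2, the p100 subunit of NF-kB, stayed above as well, with 156 and 112 CPM at 24 hours in the combined treatment and 57.5 and 76.9 CPM with I-BET alone (0.99, SE 0.17, edgeR adjusted p = 0.0365). Plaur had 20.9 and 15.8 CPM at 24 hours in the combined treatment, against 24.4 and 20.1 CPM with I-BET alone, and 44.7 and 49.9 CPM at 14 hours, against 23.5 and 24 CPM: a difference of 0.996 at 14 hours (edgeR adjusted p = 0.0129) and of -0.28 at 24 hours (edgeR adjusted p = 1). Cd83 went the other way, 1.49 at 4 hours, -1.07 at 14 hours (edgeR adjusted p = 0.0272) and -0.82 at 24 hours (edgeR adjusted p = 0.167), being below I-BET alone at 14 hours. Gpr84 showed no detected difference from I-BET alone at 14 hours, at 0.05, and was below it at 24 hours (-1.52, SE 0.28, edgeR adjusted p = 0.0414). The calls at 24 hours moved with single libraries: without 24-hour library 1 of the combined treatment those of Nfkb2 and Gpr84 were lost, and without 24-hour library 1 of I-BET alone those of Traf1, Nfkb2 and Gpr84. Myc had a difference of 2.90 at 14 hours (edgeR adjusted p = 0.039) and 1.19 at 24 hours (edgeR adjusted p = 1), at levels under 2 CPM in the combined libraries. The promoter motif TGANTCA stood in 10 of 59 windows of this set (16.9%, against 5.13% of all) and the NF-kB motif in 2 (3.39%, against 0.415% of all).

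**Figure D4:**
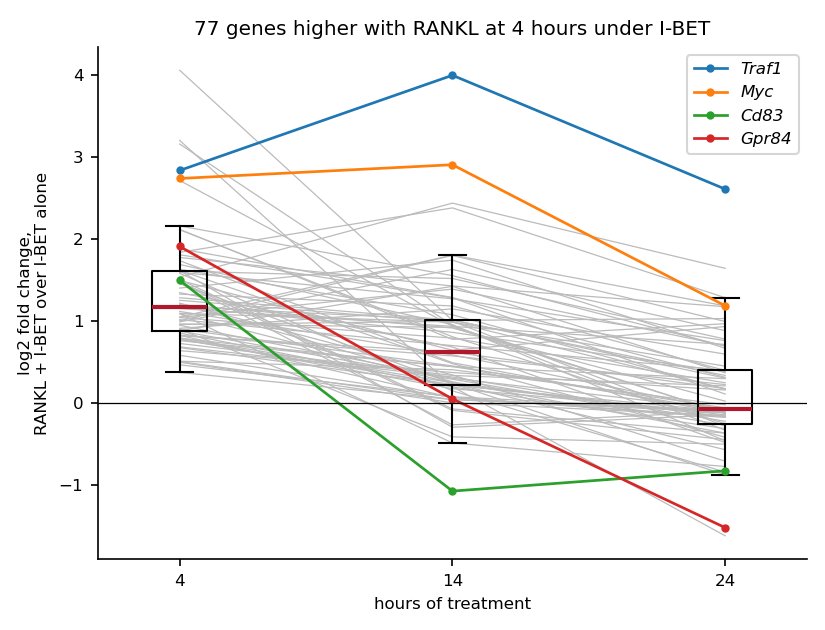
Log2 fold change of RANKL plus I-BET over I-BET alone (y axis) at 4, 14 and 24 hours (x axis) of the 77 genes higher at 4 hours, 1 grey line per gene; boxes give the quartiles with the median in red, whiskers reach to 1.5 times the box, and 4 genes are coloured. The 4-hour values chose the genes; the medians are 1.17, 0.62 and -0.078, Traf1 has the highest value at 24 hours, 2.61, and Cd83 is below 0 at 14 hours.

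The wider early response of RANKL without the inhibitor was read in the same way. The 334 genes that RANKL raised at 4 hours against untreated cells (2.08% of the tested genes) had a median change of -0.33 between 24 and 14 hours of the combined treatment; 22 were called lower and 0 higher (106 and 2 with the block). The 293 genes that RANKL lowered at 4 hours (1.83%) had a median of 0.21, with 10 called higher and 0 lower (79 and 2 with the block). With RANKL alone the 334 genes had a median of -0.32 between these hours, with 63 called lower and 3 higher, and the 293 genes a median of 0.16, with 40 called higher and 8 lower. I-BET alone had medians of -0.026 (1 called lower) and 0.076 (0 called). Of all tested genes 0.318% were called lower and 0.106% higher in the combined treatment, and 3.95% and 3.38% with the block. With RANKL alone 1.78% of all tested genes were called lower and 1.13% higher. The 6 genes lower at 4 hours under the inhibitor had a median of 0.14. In the combined treatment and in RANKL alone both sets thus had medians on the side of 0 opposite to their early response. The untreated libraries chose these sets together with the 4-hour ones, and untreated library 2 stands apart in RNA quality genes; its part in the choice was not tested.

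Whether the remaining RANKL response changed was also tested gene by gene, as the difference between the courses of RANKL plus I-BET and of I-BET alone. By edgeR 0 of 16042 genes were called for this difference, while 365 had an unadjusted p under 0.05; DESeq2 called Plaur and Clec4e, both lower, and limma on log2(RPKM + 1) called 1 unnamed transcript. The median SE of the difference was 0.21 for the 9304 genes averaging 5 CPM or more, against 0.15 for the plain change. With the block 7 genes were called (0.0436%), all lower: Glipr1, Sdc4, Bhlhe40, Cd44, Gsap, Myo10 and Cdk6, named because the count is small. Counted separately, 88 genes were higher and 57 lower in the combined treatment than with I-BET alone at 14 hours (0.549% and 0.355%; 573 and 483 with the block, 3.57% and 3.01%), and 17 were higher and 25 lower at 24 hours (0.106% and 0.156%; 179 and 294 with the block, 1.12% and 1.83%). With 1 library left out the 145 genes of 14 hours became 16 and 54 without library 1 and 2 of the combined treatment and 26 and 26 without those of I-BET alone. The 42 genes of 24 hours became 4 (2 higher, 2 lower) and 14 (11 higher, 3 lower) without library 1 and 2 of the combined treatment, 2 (1 each way) and 17 (2 higher, 15 lower) without those of I-BET alone and 11 (4 higher, 7 lower) without the untreated libraries. Which direction held more calls at 24 hours thus turned with the library left out.

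In these 7 genes the combined treatment was higher than I-BET alone at 14 hours in each library against that of the same number, and the gap was smaller or turned round at 24 hours. Glipr1, a secreted protein of the CAP family, had 45.5 and 32.5 CPM at 24 hours and 82.3 and 71.1 CPM at 14 hours of the combined treatment, beside 39.6 and 30.1 CPM and 37.6 and 29.9 CPM with I-BET alone (difference of the courses -1.03 and adjusted p = 0.00472 with the block; -1.02 and 1 without). Sdc4, a heparan sulfate proteoglycan, had 229.7 and 190.3 CPM at 24 hours and 239.9 and 242 CPM at 14 hours, beside 309 and 252 CPM and 182 and 163 CPM (-0.90 and 0.00124; -0.90 and 0.966). Here the course of I-BET alone moved more than that of the combined treatment. Cd44, the hyaluronan receptor, had 334 and 233 CPM at 24 hours and 574 and 456 CPM at 14 hours, beside 315 and 245 CPM and 341 and 267 CPM (-0.75 and 0.00472; -0.74 and 1). Cdk6, a G1 kinase, had 214 and 124 CPM at 24 hours and 340.4 and 189 CPM at 14 hours, beside 179 and 106 CPM and 191 and 106 CPM (-0.59 and 0.00537; -0.59 and 1). In Cdk6 library 1 was far above library 2 in every group, a gap that the block removes. The transcription factor Bhlhe40 (-0.78), Gsap (-0.75) and the unconventional myosin Myo10 (-0.71) had adjusted p = 0.0356, 0.00472 and 0.00472 with the block. With the block and 1 of the 8 libraries left out, between 1 and 55 genes were called. The counts were 36 and 55 without 24-hour library 1 and 2 of the combined treatment, 1 and 6 without its 14-hour library 1 and 2, 1 and 9 without 24-hour library 1 and 2 of I-BET alone, and 7 and 1 without its 14-hour library 1 and 2.

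Set against RANKL alone, the course of the combined treatment differed in 7 genes by edgeR (0.0436% of the tested genes), 4 higher (0.0249%) and 3 lower (0.0187%). With the block 294 were called (1.83%), 156 higher (0.972%) and 138 lower (0.86%). Lsp1 had 56.3 and 62.8 CPM at 24 hours and 27.6 and 36.4 CPM at 14 hours of the combined treatment, beside 4.53 and 4.97 CPM and 12.5 and 18.5 CPM with RANKL alone. It rose in the combined course and fell by 1.70 with RANKL alone (edgeR adjusted p = 0.000432). The difference of the courses was 2.60 (SE 0.26, edgeR adjusted p = 0.00175). I-BET alone had 89.2 and 89.4 CPM at 24 hours and 47.8 and 52.5 CPM at 14 hours, a log2 change of 0.83 (SE 0.17, edgeR adjusted p = 0.122, with the block 0.000175), beside 0.90 in the combined treatment. Kctd12, a subunit of GABA-B receptors, had 17.4 and 18.8 CPM at 24 hours and 13.6 and 13.3 CPM at 14 hours, beside 6.76 and 7.57 CPM and 13.6 and 11.8 CPM with RANKL alone (1.26, SE 0.15, edgeR adjusted p = 0.00619). Hspa4l, a chaperone of the Hsp110 family, had 62.2 and 72.1 CPM at 24 hours and 76.2 and 68 CPM at 14 hours, beside 188 and 241 CPM and 81.6 and 81.4 CPM with RANKL alone (-1.50, SE 0.23, edgeR adjusted p = 0.0444). Hspa4l rose by 1.39 with RANKL alone (edgeR adjusted p = 0.000494), and no change was detected in the combined treatment (-0.10, SE 0.16). Lpin2, a phosphatidate phosphatase, had 74.7 and 72.9 CPM at 24 hours and 64.1 and 66 CPM at 14 hours, beside 69.6 and 73.8 CPM and 33 and 34.5 CPM with RANKL alone (-0.90, SE 0.11, edgeR adjusted p = 0.00619). Slc44a1, a choline transporter, had 409 and 396 CPM at 24 hours and 345 and 392 CPM at 14 hours, beside 104 and 109.5 CPM and 170.5 and 172 CPM with RANKL alone. The differences of Slc44a1 (0.81), Rnf24, a RING finger protein (-1.16), and Id1, an inhibitor of basic helix-loop-helix factors (3.54), were called as well at adjusted p = 0.022, 0.0444 and 0.0444. In I-BET alone the changes were 0.52 for Kctd12, -0.028 for Hspa4l, -0.0096 for Lpin2, 0.17 for Slc44a1, 0.18 for Rnf24 and -0.81 for Id1, beside 0.43, -0.10, 0.18, 0.13, 0.38 and -1.37 in the combined treatment. The difference between these courses was called in none of the 7 genes, with the block (edgeR adjusted p = 0.732 to 0.986) or without, which does not show that they are alike. With 1 of the 8 libraries left out, Lsp1 was called in 8 of 8 fits, Kctd12 in 5, Lpin2 in 4, Id1 in 2 and Hspa4l, Rnf24 and Slc44a1 in 1 each. The count of calls was 4 and 8 without 24-hour library 1 and 2 of the combined treatment, 1 and 1 without its 14-hour library 1 and 2, 6 and 2 without 24-hour library 1 and 2 of RANKL alone, and 1 and 6 without its 14-hour library 1 and 2.

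**Figure D5:**
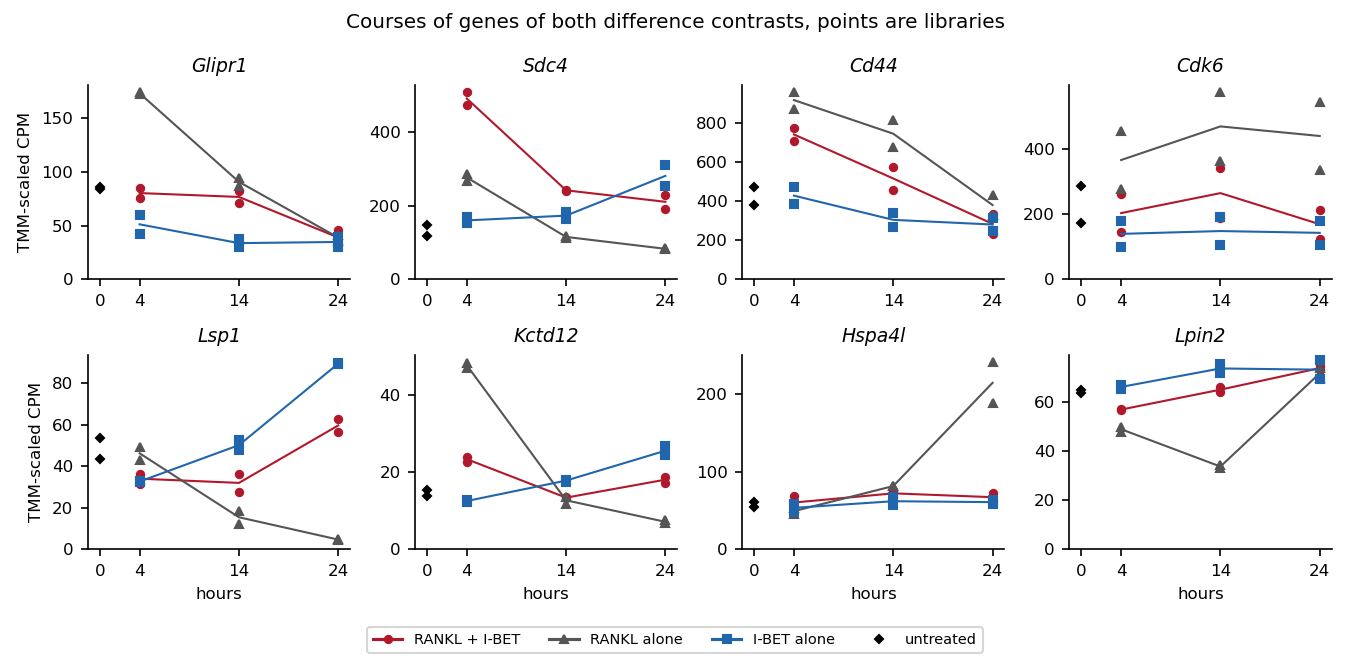
TMM-scaled CPM (y axis, from 0) against hours of treatment (x axis) of 4 genes called with the block for the difference from the course of I-BET alone (top) and 4 genes called for the difference from the course of RANKL alone (bottom); points are libraries, lines join group means, and black diamonds are untreated cells. At 24 hours the combined treatment and I-BET alone overlap in Glipr1 and Cd44, and Lsp1 is at 56.3 and 62.8 CPM in the combined treatment and 4.53 and 4.97 CPM in RANKL alone.

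The 68 called genes had values of the same sign in the other courses more often than not. Over the 51 genes that fell the median change between these hours was -1.05 in the combined treatment, -0.51 with I-BET alone and -0.74 with RANKL alone; 48 of the 51 were below 0 with I-BET alone and 49 with RANKL alone, 3 and 30 of them called lower. Over the 17 genes that rose the medians were 0.91, 0.41 and 0.55, with 17 and 15 above 0 and 0 and 8 called higher; Lsp1 was called lower with RANKL alone. Counted over all tested genes, I-BET alone had 1 gene called higher and 5 lower (0.00623% and 0.0312%): the metallothionein Mt1 was higher, and Slc11a1, Oas2, Adcy2, Hnrnpa1 and Spink5 were lower. RANKL alone had 181 higher and 285 lower (1.13% and 1.78%). Across the 9304 genes averaging 5 CPM or more, the change in the combined treatment correlated with that of I-BET alone at Pearson's r = 0.615 and Spearman's rho = 0.574. With the change of RANKL alone it correlated at r = 0.538 and rho = 0.531. Over all 16042 tested genes r was 0.306 with I-BET alone and 0.209 with RANKL alone. These values are a description across genes, which are not independent replicates and whose libraries share their numbers.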

How the data were processed

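RNA was read from poly(A) libraries (NEBNext Ultra, Illumina HiSeq, paired-end 100 bp, per the labels' protocols). Per the submitters' processing notes the authors used FastQC, STAR 2.5.3a and DESeq2 1.16.1 with build GRCm38 (mm10); the sources used here give neither the counting tool nor its strand setting. Overlapping, antisense and multigene family genes are therefore uncertain. The authors deposited raw read counts per gene for 50686 genes and an RPKM table, in which counts are divided by gene length and library total; the RPKM add no independent data. Symbols came from the deposited file for 42745 genes and from GENCODE M21 for 7915.

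The deposited counts entered edgeR 4.0.16 (R 4.3.3) with TMM factors, filterByExpr (16042 genes), all 20 libraries in 1 fit with a mean per group (10 residual degrees of freedom), robust quasi-likelihood F tests and Benjamini-Hochberg adjustment over all tested genes; calls are at adjusted p under 0.05. Alternatives were the replicate block, RLE factors, no filter, 1 CPM or more in 4 or more libraries, no robust estimation, DESeq2 1.42.0, limma 3.58.1 on log2(RPKM + 1) and log2(RPKM + 0.1) for genes with 1 RPKM or more in 2 or more libraries, only the libraries of a comparison, and leaving out each library; the fit without untreated libraries, the block with 1 library left out, 4-hour lists called with the block and response medians with 1 library left out were added after seeing the data. A group left with 1 library is assumed to vary like the others. Same-numbered libraries deviated together in all 45 pairs of groups (correlation 0.221 to 0.596, median 0.454; 0.301 for the 24-hour and 14-hour libraries of the combined treatment), though the labels name no batch; the block lowered the biological coefficient of variation to 0.0751, against 0.162.

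Genes named were 20 fixed genes, the 12 largest falls and rises among called genes averaging 5 CPM or more with separated libraries and a symbol that is no predicted gene name, the 5 largest of each difference contrast each way, and up to 3 called members of each of 29 lists; genes called only with the block, the early response genes given singly, and others marked so in the text were named after their values were seen. The members, lists and tests were chosen with earlier results of these data known. A few fixed genes of the rule are not reported here. Lists are described by counts and medians with no set test. On data simulated for the comparison of 24 with 14 hours (16042 genes), 10 of 67 genes changed 1.5-fold, 36 of 67 changed 2-fold and 43 of 66 changed 4-fold were recovered with 3 false calls. Promoter windows are RefSeq's (GRCm38.p6; 9650 of the tested genes matched). Figures were drawn with matplotlib 3.10.9.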

Additional observations from a re-analysis of the deposited data

Results flagged for a closer look

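In 7 genes the change from 14 to 24 hours differed between the combined treatment and RANKL alone, by a test of the difference itself (edgeR, adjusted over 16042 genes). The difference, combined course minus RANKL course on the log2 scale, was 2.60 for Lsp1, 3.54 for Id1, 1.26 for Kctd12 and 0.81 for Slc44a1, and -1.50 for Hspa4l, -1.16 for Rnf24 and -0.90 for Lpin2. Id1 rested on low levels, with 1.32 and 0.854 CPM at 24 hours and 2.82 and 2.79 CPM at 14 hours of the combined treatment, against 0.0743 and 0.101 CPM and 3.3 and 2.13 CPM with RANKL alone. With the replicate block all 7 had an adjusted p under 0.05, from 1.17e-08 for Lsp1 to 0.00218 for Hspa4l. Groups of 2 libraries are too small for a test of outlying libraries.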

How the results depend on the processing

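Counts of called genes are given here for, in this order, the change from 14 to 24 hours (68 as reported), the difference from the course of I-BET alone (0), the difference from the course of RANKL alone (7), the combined treatment against I-BET alone at 14 hours (145) and the same at 24 hours (42). They were 1177, 7, 294, 1056 and 473 with the replicate block; 298, 39, 132, 316 and 236 with no low-count filter; 316, 2, 75, 407 and 131 with DESeq2; and 0 in each with only the libraries of the comparison. With limma on log2(RPKM + 1) the first 3 were 43, 1 and 16, on log2(RPKM + 0.1) the first was 45, and with the CPM filter the third was 15. Without the untreated libraries the first was 36 and the fifth 11. With 1 library left out they ran from 1 to 49, 0 to 0, 1 to 8, 16 to 54 and 2 to 17, and with the block and 1 library left out 773, 1026, 312 and 345 for the first (without 24-hour library 1 and 2, then 14-hour library 1 and 2) and from 1 to 55 for the second (36, 55, 1 and 6 without those libraries, 1, 9, 7 and 1 without those of I-BET alone). RLE factors and fits without robust estimation left all 5 within 1.5 times; the cause of the differences was not tested. Of the calls of the first comparison 25% were higher, against 46.1% with the block (543 and 634), 36.7% with DESeq2 (116 and 200) and 51.2% (22 and 21) and 42.2% (19 and 26) with limma. No named gene changed direction past the threshold in any alternative. The median change of the genes higher at 4 hours under I-BET was -0.28 when that list was called with the block, and that of the 6 genes lower at 4 hours was 0.14, against 0.037 in the list called with the block; with 1 library left out it was -0.63 to -0.29 for the 77 genes, 0.066 to 0.20 for the 6, -0.44 to -0.23 for the 334 and 0.18 to 0.21 for the 293. Of the 28 named genes that were called, 28 were called with the block, and 24 kept the call in all 4 fits with the block and 1 library left out; of the 24 not called, 5 were called with the block. Depth was not even, 27032294 to 54024985 counts over the 4 libraries, and at 2 libraries a group changes of 1.5-fold were mostly missed in simulated data.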
